A study of Mus musculus with 1753 samples.

Results

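The HOX genes are described here across fibroblasts and mural cells of mouse calf muscle. Members were all genes of the count table whose mouse identifier belongs to a protein-coding gene named Hoxa, Hoxb, Hoxc or Hoxd followed by a number only, which gave 39 of 46517 genes. No measured value was used to choose them. The members lie in 4 loci, with 11 genes in HOX-A on chromosome 6, 10 in HOX-B on chromosome 11, 9 in HOX-C on chromosome 15 and 9 in HOX-D on chromosome 2.

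HOX genes encode transcription factors that bind DNA through a homeodomain and give cells a position along the body and limb axes. Genes with the same number in different loci are paralogues, which arose by duplication of an ancestral locus. Low numbers lie at the 3′ end of a locus and act toward the head, and high numbers lie at the 5′ end and act toward the tail and in the limbs. Posterior HOX-A and HOX-D genes pattern the limb from shoulder or hip to digits, posterior HOX-C genes are active in hindlimbs more than in forelimbs, and connective tissue cells of adult skin and muscle are known to keep part of this code.

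Single cells had been sorted from the gastrocnemius, in part with the soleus kept apart, of male mice aged 10 to 20 weeks, and RNA was measured with Smart-seq2, a full-length method without molecular identifiers. Sorted cells lacked the endothelial protein CD31 and carried a reporter or bound antibodies against PDGFRα or PDGFRβ. The cells carried 5 strain labels and lay on 8 plates. C57BL6 is an inbred strain without a reporter. Acta2GFP, Cspg4dsRED and PdgfrbGFP name lines in which a fluorescent protein is driven by the gene in the name, and the label PdgfraGFP - PdgfrbGFP pool (the pool) covers both of these GFP lines together. The tissue label is skeletal muscle for every cell, while the protocol label speaks of heart in the same sentence as a muscle dissociation kit. The methods describe muscle, and the label of the tissue was followed.

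The cells fell into the study's 10 clusters, and class names follow its text. Endomysial fibroblasts, around single muscle fibres, were 1116 cells of clusters 1, 3, 5, 6 and 8. Perimysial fibroblasts, around fibre bundles, were 328 cells of clusters 2 and 9, and paramysial fibroblasts, between both zones, were 60 cells of cluster 4. Cluster 10 held 62 cells and has no class name, and cluster 7 held 187 mural cells, which are the pericytes and smooth muscle cells of vessel walls. All cells but the mural cells were counted as fibroblasts. The clusters had been made from the same counts, so differences between classes describe those clusters. The strain label served as the replicate, since the labels name no animal, and p-values measure only the spread between these labels.

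Cells held between 46097 and 1055869 counts (median 258251), and class medians ran from 156959 in mural to 595321 in paramysial cells. The marker lists followed the class names. The summed level of 5 mural markers was between 7050 and 10433 scaled counts per cell in mural cells and at most 519 in any other class and strain. The summed level of 5 fibroblast markers was between 111 and 624 in mural cells and at least 6667 elsewhere. The list of 5 immune markers reached 403 in the 9 mural cells of C57BL6, against 54.1 at most in any other class and strain, and the list of 5 satellite cell markers reached 78.5 in mural cells of Acta2GFP. The list of 5 endothelial markers reached 135 in the 11 mural cells of the pool and 159 in a strain of cluster 10. Their part in the mural values of these strains was not tested.

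The sequences below show how alike the most abundant paralogues were. Each line is the homeobox, the 180 bases that encode the homeodomain, read from the GENCODE M21 transcripts of GRCm38 from 5′ to 3′. Capitals mark bases that differ from Hoxa10.
Hoxa10: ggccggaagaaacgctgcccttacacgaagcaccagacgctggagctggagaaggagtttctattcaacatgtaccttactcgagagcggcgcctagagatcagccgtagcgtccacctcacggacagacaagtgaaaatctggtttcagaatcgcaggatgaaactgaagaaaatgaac
Hoxc10: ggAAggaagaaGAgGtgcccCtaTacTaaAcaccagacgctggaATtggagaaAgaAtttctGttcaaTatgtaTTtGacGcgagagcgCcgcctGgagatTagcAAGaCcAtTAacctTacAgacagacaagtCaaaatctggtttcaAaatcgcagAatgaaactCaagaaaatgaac
Hoxd10: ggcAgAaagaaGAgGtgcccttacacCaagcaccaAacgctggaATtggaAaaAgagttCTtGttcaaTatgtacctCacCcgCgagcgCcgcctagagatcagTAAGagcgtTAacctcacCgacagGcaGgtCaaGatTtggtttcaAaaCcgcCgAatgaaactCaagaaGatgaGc
Hoxc10 differed from Hoxa10 at 35 bases and Hoxd10 at 38 bases, so 80.6% and 78.9% of bases were identical. No run of 50 bases, the read length, was shared by transcripts of these paralogues. Only 2 pairs of members from different loci shared any such run, Hoxa6 with Hoxb4 and Hoxb9 with Hoxc9.

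The next lines give promoters of the members that the class comparisons turn on, from RefSeq on GRCm38.p6, with 250 bases before and 50 bases from the start of transcription. Capitals mark TTTAT, or ATAAA where it lies on the other strand, a short stretch within the sequence that posterior HOX proteins recognise.
Hoxa7, chr6:52218524-52218823, minus strand: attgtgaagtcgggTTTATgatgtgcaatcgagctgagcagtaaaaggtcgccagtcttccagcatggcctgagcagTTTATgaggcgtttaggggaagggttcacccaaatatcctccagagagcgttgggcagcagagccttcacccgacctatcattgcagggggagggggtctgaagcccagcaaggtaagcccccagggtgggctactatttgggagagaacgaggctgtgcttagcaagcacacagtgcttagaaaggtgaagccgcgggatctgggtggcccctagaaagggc
Hoxd11, chr2:74682073-74682372, plus strand: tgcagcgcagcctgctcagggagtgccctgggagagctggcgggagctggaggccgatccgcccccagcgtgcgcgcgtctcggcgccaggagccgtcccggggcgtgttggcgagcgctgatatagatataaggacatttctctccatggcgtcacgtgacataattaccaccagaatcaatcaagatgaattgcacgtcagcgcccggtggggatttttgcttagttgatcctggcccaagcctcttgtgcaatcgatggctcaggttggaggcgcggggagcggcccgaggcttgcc
Hoxd11, upstream start, chr2:74679308-74679607, plus strand: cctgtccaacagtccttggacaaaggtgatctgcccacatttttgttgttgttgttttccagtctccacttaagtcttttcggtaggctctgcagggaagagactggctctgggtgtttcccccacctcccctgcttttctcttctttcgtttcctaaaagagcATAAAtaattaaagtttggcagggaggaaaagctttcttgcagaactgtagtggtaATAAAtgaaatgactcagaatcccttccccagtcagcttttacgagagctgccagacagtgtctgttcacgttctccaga
Hoxd10, chr2:74691641-74691940, plus strand: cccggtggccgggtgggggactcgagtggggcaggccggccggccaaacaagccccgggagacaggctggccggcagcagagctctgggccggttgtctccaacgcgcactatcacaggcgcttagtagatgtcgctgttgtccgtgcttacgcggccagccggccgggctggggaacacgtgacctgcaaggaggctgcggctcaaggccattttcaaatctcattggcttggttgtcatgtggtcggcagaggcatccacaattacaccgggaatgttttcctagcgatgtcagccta
Hoxd9, chr2:74697513-74697812, plus strand: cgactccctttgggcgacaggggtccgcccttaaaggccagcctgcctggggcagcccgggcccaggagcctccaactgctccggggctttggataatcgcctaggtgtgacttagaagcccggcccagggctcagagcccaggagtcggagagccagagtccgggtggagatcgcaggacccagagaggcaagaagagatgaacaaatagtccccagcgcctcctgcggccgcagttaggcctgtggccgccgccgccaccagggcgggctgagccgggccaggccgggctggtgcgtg
The Hoxa7 window held 2 of these stretches, the upstream Hoxd11 window held 2, and the other windows shown held 0. Of 24 promoters of 22 members, 9 (37.5%) held TTTAT on either strand, beside 40.01% of 32851 promoters in the whole table. The homeodomain motif TAATTA, which reads the same on both strands, was in 2 of the 24 member promoters and in 5.29% of all promoters, and both matches lay in the Hoxd11 windows. TGATTTAT, a site for HOX proteins paired with PBX that holds TTTAT within it, was in 0 of the 24 and in 0.977% of all promoters.

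Most cells held a HOX transcript, and the posterior genes of numbers 9 to 11 made up most of it. A count of at least 1 member was found in 1533 cells, which was 84.9% ± 17.1 of cells (SD, n = 5 strains). The share ran from 54.7% in Cspg4dsRED, the strain of lowest depth, to 95.5%. After each cell was thinned to 46000 reads it was 73.3% ± 14.4, and still ran from 48.6% to 86.0% over strains. The median cell held 2 members and the highest held 11.

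Of the 39 members, 35 had a count. Hoxb13, Hoxd1, Hoxd12 and Hoxd13 were at 0 in every cell, which allows a share of up to 0.171% of cells. In 14 members the share of cells with a count was 5% or more. Numbers are compared below on 1 scale, scaled counts per kb of exon, where scaled means that each cell was brought to 500000 counts without spike-ins.

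Members of numbers 9 to 11 held 76.4% ± 4.86 of the summed level per kb (SD, n = 5), with a range over strains of 72.3% to 81.9%. Numbers 5 to 8 held 17.3% ± 4.17, numbers 1 to 4 held 5.75% ± 1.26 and numbers 12 and 13 held 0.503% ± 0.174. These ranges did not overlap for neighbouring bands. By locus, HOX-C held 40.6% ± 8.44, HOX-A 37.0% ± 7.00, HOX-D 20.9% ± 7.94 and HOX-B 1.46% ± 1.82. HOX-C and HOX-A lay within their spread of each other, and HOX-B, of which Hoxb2 was the member with most counts, was lowest in all 5 strains.

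**Figure D1:**
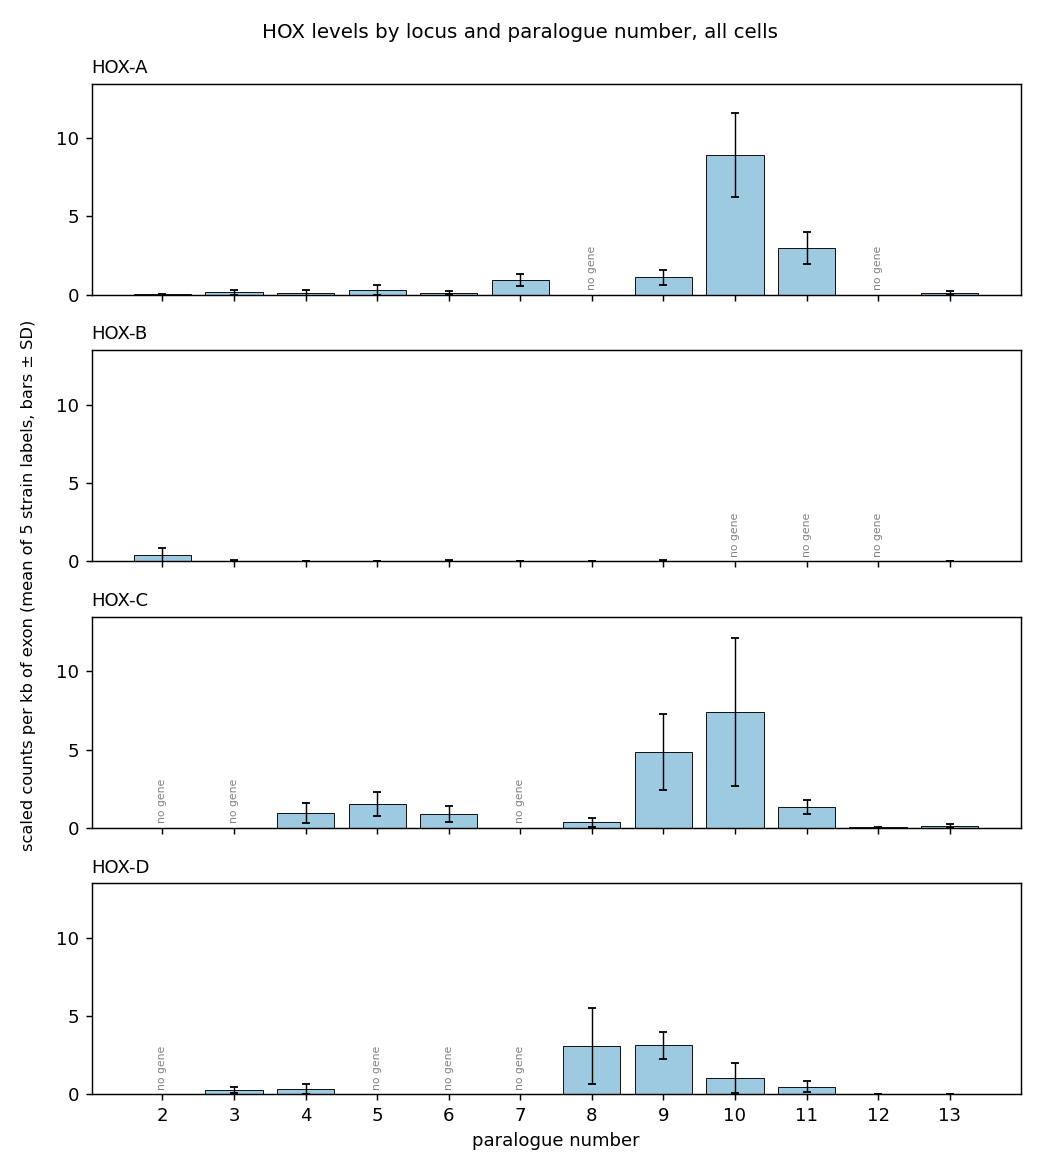
Mean level over all cells of the HOX members of numbers 2 to 13, in scaled counts per kb of exon, by paralogue number (horizontal axis) and locus (panels), with bars for the mean of 5 strain labels and lines for the SD. The tallest bars are Hoxa10 at 8.93 and Hoxc10 at 7.42, and the HOX-B panel is near 0 apart from Hoxb2.

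The posterior group led the order of single genes. Hoxa10 (chr6:52231197-52240854) had the highest level per kb, at 8.93 ± 2.70 scaled counts per kb, and was found in 708 cells (40.4%). Hoxc10 (chr15:102966796-102971893) followed at 7.42 ± 4.75, and Hoxc9 (chr15:102976439-102985099) was at 4.85 ± 2.41. Hoxa10 and its paralogues take part in patterning the upper hindlimb, and Hoxa11 and Hoxd11 the lower leg and forearm. Each of these 3 levels lay within 1 SD of its neighbour in the order.

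Hoxd9 at 3.13 ± 0.867, Hoxd8 at 3.08 ± 2.41 and Hoxa11 at 2.97 ± 1.01 scaled counts per kb came next and differed by less than their spread. Hoxc5 at 1.505 ± 0.778, Hoxc11 at 1.32 ± 0.450, Hoxa9 at 1.105 ± 0.465 and Hoxd10 at 1.07 ± 0.961 closed the highest 10, and these too lay within their spread. The gene model of Hoxc5 starts inside Hoxc10 and shares runs of 50 bases with it, so the level of Hoxc5 is uncertain. Exons of Hoxd3 and Hoxd4 overlap each other and further annotated genes, over 62.9% of the exon bases of Hoxd3 and 52.3% of those of Hoxd4. Their counts were 1056 and 915 over all cells, 248 and 102 in cluster 3 and 97 and 187 in cluster 4. Other clusters held nearly equal counts, at 29 and 29 in cluster 5, 109 and 115 in cluster 8 and 122 and 127 in cluster 9. How many reads were counted for both was not tested, and both levels are uncertain.

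The first comparison asked which members differed between mural cells and fibroblasts. Hoxa7 rose in mural cells and Hoxd11 fell, though both calls were lost in some other settings. The other members tested did not pass the threshold. Counts were summed per strain and class and tested with edgeR's quasi-likelihood test with the strain as a block, and a gene was called where the p adjusted by the Benjamini-Hochberg method over all genes tested was under 0.05. Of 13880 genes tested, 15.4% were called. Of 16 members tested 2 (Hoxa7 and Hoxd11) were called, which is not above the share for all genes. The other 23 members had too few counts. The median log2 fold change of the 16 members was 0.38, beside -0.46 for all genes tested.

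Hoxa7 (chr6:52214491-52221854), a mid-locus gene that acts in the trunk skeleton, was at 7.30 scaled counts per cell in mural cells of Acta2GFP, 9.64 in C57BL6, 10.3 in Cspg4dsRED, 7.01 in the pool and 21.04 in PdgfrbGFP. In fibroblasts it was at 0.248, 0.950, 0.0387, 2.42 and 1.68 in the same order. The mural values were all above the fibroblast values, with no overlap. Its log2 fold change was 4.42 (SE 1.11, adjusted p = 0.0291, edgeR), and it was higher in 5 of 5 strains. The call was lost without Acta2GFP, Cspg4dsRED, the pool or PdgfrbGFP, with adjusted p from 0.0527 to 0.107, and stood without C57BL6 (0.0378). It was also lost with no filter on low counts (adjusted p = 0.0514, edgeR) and with the plate in place of the strain as unit (adjusted p = 0.373, edgeR). A count of it was found in 28 of 187 mural cells, against 83 of 1566 fibroblasts.

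Hoxd11 (chr2:74679557-74687016) was at 5.06 scaled counts per cell in fibroblasts of Acta2GFP, 4.05 in C57BL6, 1.29 in Cspg4dsRED, 1.38 in the pool and 0.715 in PdgfrbGFP. In mural cells it was at 0 in Acta2GFP, C57BL6 and the pool, at 0.0521 in Cspg4dsRED and at 0.159 in PdgfrbGFP, below every fibroblast value. These mural values rest on 3 counts in 3 of 187 cells, against 2067 counts in 66 of 1566 fibroblasts. The ratio of summed levels was 53.2 (95% exact interval 18.2 to 258, counting error only). Few cells carry this ratio of reads, and the shares of cells with a count lay closer to each other than the summed levels. The fitted log2 fold change was -5.68 (SE 1.39, adjusted p = 0.0256, edgeR), and Hoxd11 was lower in 5 of 5 strains. The call was lost when Acta2GFP, C57BL6, Cspg4dsRED or the pool was left out, with adjusted p from 0.0582 to 0.0759. With the plate as unit, Hoxd11 had too few counts to be tested.

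Hoxd10 (chr2:74691924-74695105), its neighbour in the locus, did not enter the test. It was at 0 in 187 mural cells, which allows a share of up to 1.60% of cells, while fibroblasts held 2107 counts. Against 3 counts over the mural group its summed level was at least 54.2-fold lower in mural cells, a bound that covers counting error only. Those fibroblast counts came from 65 cells, so few cells carry the bound. Fibroblasts of Cspg4dsRED were also at 0, and the other fibroblast values were 6.64 in Acta2GFP, 3.27 in C57BL6, 1.30 in the pool and 1.02 in PdgfrbGFP. The neighbours on the 3′ side lay nearer to 0, with log2 fold changes of 0.97 for Hoxd9 (adjusted p = 0.713, edgeR) and -0.46 for Hoxd8 (adjusted p = 0.76, edgeR).

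Of the members that did not pass, Hoxa11 had the largest difference, with a log2 fold change of -3.80 (SE 1.28, adjusted p = 0.0873, edgeR). It was at 1.39, 0, 0.455, 0.491 and 3.03 scaled counts per cell in mural cells of Acta2GFP, C57BL6, Cspg4dsRED, the pool and PdgfrbGFP, and between 6.53 and 9.83 in fibroblasts. These groups did not overlap, yet the adjusted p missed the threshold. Hoxc4 (log2 fold change -3.01, adjusted p = 0.403, edgeR) and Hoxc11 (-2.85, adjusted p = 0.351, edgeR) varied more between strains. DESeq2 called 7 members, Hoxa3, Hoxa7, Hoxa11, Hoxc4, Hoxc5, Hoxc11 and Hoxd11, beside 31.2% of all genes tested.

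**Figure D2:**
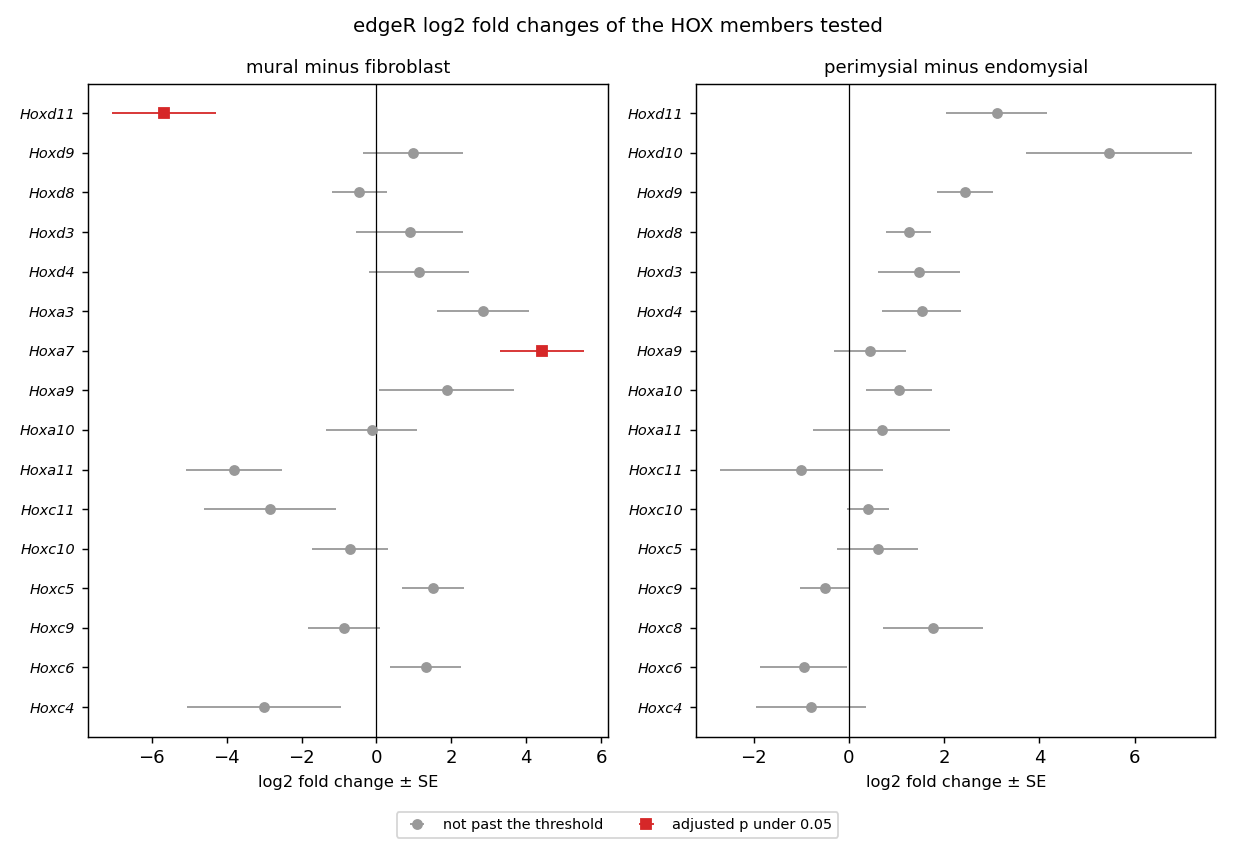
Log2 fold change ± SE from edgeR for the 16 members tested in each of the mural against fibroblast (left) and perimysial against endomysial (right) comparisons, ordered by locus. Squares mark members past the threshold, which were Hoxd11 at -5.68 and Hoxa7 at 4.42 on the left, with none on the right.

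HOX-B held 3.94% ± 3.15 of the summed level per kb in mural cells, with 0.194% to 8.69% over strains, and 0.296% ± 0.132 in fibroblasts, with 0.106% to 0.401%. These ranges overlapped, and the share was not tested. Hoxb2, which acts in the hindbrain, was at 2.19 scaled counts per cell in mural cells of Acta2GFP, 0 in C57BL6, 10.7 in Cspg4dsRED, 5.95 in the pool and 6.83 in PdgfrbGFP, while every fibroblast value was at or below 0.387. It was found in 10 of 187 mural cells and 15 of 1566 fibroblasts, and it did not pass the filter on low counts. Without C57BL6, Hoxb2 passed the filter and was called. Exons of the antisense gene Hoxb3os overlap 27.3% of the exon bases of Hoxb2, so the level of Hoxb2 is uncertain. Hoxb3os was at 5.11 ± 3.72 scaled counts per cell in mural and 0.111 ± 0.109 in endomysial cells. Numbers 9 to 11 held 61.4% ± 8.74 of the summed level per kb in mural cells (50.4% to 73.7%) and 80.7% ± 4.77 in fibroblasts (73.8% to 86.0%), which was not tested either.

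Genes inside the HOX loci that are not members were sparse. Of 46 such genes, 5 were tested in this comparison and 1, Gm27867, was called, where 15.4% of all genes were, with a log2 fold change of 3.13 (adjusted p = 0.0327, edgeR). Hotairm1, a long noncoding RNA at the 3′ end of HOX-A, had a log2 fold change of 2.99 (adjusted p = 0.0517, edgeR) and was higher in 5 of 5 strains. Gm27867 lies within the span of Hotairm1 on the same strand, so their values may not be separate, which was not tested. Counting was not stated to use strand, so reads of antisense partners cannot be told apart from those of members. Exons on the other strand overlap 20.4% of the exon bases of Hoxa7 (Hoxaas3) and 35.0% of those of Hoxa11 (Hoxa11os). In mural and endomysial cells Hoxaas3 was at 1.79 and 0.340 scaled counts per cell, and Hoxa11os at 0.507 and 5.64. Their part in the levels of Hoxa7 and Hoxa11 was not tested.

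The next comparison asked whether perimysial cells differed from endomysial cells. The neighbours Hoxd8 to Hoxd11 had higher means in perimysial cells, but no member passed the threshold. Of 14121 genes tested, 5.57% were called by edgeR, with 2233 at an unadjusted p under 0.05. Of 16 members tested 0 were called by edgeR, with 4 at an unadjusted p under 0.05. Those 4 were Hoxd8, Hoxd9, Hoxd10 and Hoxd11, and DESeq2 called the same 4, beside 14.6% of all genes. The median log2 fold change of the members tested was 0.87, beside -0.19 for all genes.

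Hoxd9 (chr2:74697727-74700208) was at 9.60 scaled counts per cell in perimysial cells of Acta2GFP, 8.37 in C57BL6, 6.74 in Cspg4dsRED, 28.0 in the pool and 18.4 in PdgfrbGFP. In endomysial cells it was at 4.99, 1.38, 0.741, 5.57 and 3.58 in the same order, and no endomysial value reached a perimysial value. Its log2 fold change was 2.44 (SE 0.59, adjusted p = 0.0617, edgeR), and it was higher in 5 of 5 strains. Hoxd8 was higher in 5 of 5 strains as well, at 1.25 (SE 0.48, adjusted p = 0.251, edgeR).

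Hoxd10 was at 17.3 scaled counts per cell in perimysial cells of Acta2GFP, 7.83 in C57BL6, 0 in Cspg4dsRED, 3.83 in the pool and 6.05 in PdgfrbGFP. In endomysial cells it was at 1.08, 0, 0, 0.788 and 0.157 in the same order. The groups overlapped only through Cspg4dsRED, whose perimysial cells numbered 18, and the log2 fold change was 5.46 (SE 1.74, adjusted p = 0.176, edgeR). Hoxd11 was at 12.5, 8.90, 6.37, 1.01 and 2.52 in perimysial and at 1.22, 0.579, 0.402, 1.52 and 0.415 in endomysial cells, with the pool as the strain of opposite sign. Its log2 fold change was 3.10 (SE 1.07, adjusted p = 0.192, edgeR). Together HOX-D held 33.9% ± 15.7 of the summed level per kb in perimysial cells (16.2% to 59.1%) and 14.6% ± 7.34 in endomysial cells (6.92% to 24.9%), and these ranges overlapped.

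Hoxd10 and Hoxd11 were found together in part of the cells. Of 40 perimysial cells with Hoxd10, 45.0% also held Hoxd11, against 4.86% of the other perimysial cells, with median depths of 291807 and 255783 counts. Endomysial cells went the same way, with Hoxd11 in 27.8% of 18 cells with Hoxd10 and 2.00% of the others. Exons of Gm28309 overlap 5.73% of the exon bases of Hoxd10 and 10.8% of those of Hoxd11, and its part was not tested. The other pairs looked at within a locus lay closer. Hoxd10 was in 22.4% of perimysial cells with Hoxd9 and 10.4% without, and Hoxc9 in 33.0% with Hoxc10 and 32.4% without. Pairs from different loci varied. Hoxc10 was in 32.0% of perimysial cells with Hoxa10 and 32.6% of those without, Hoxc9 in 47.5% of cells with Hoxd10 and 30.6% without, and Hoxa10 in 59.4% of cells with Hoxd11 and 45.3% without. These shares pool cells of all strains and were not tested.

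Hoxa5, a gene of the middle of HOX-A that acts in the neck, chest and lung, had 655 counts in endomysial and 2 in perimysial cells. The ratio was 88.1 (95% exact interval 24.3 to 729, counting error only). It was found in only 18 of 1116 endomysial cells, so few cells carry these counts, and it did not pass the filter. Among perimysial cells it was found in 2 of 269 in cluster 2 and 0 of 59 in cluster 9.

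**Figure D3:**
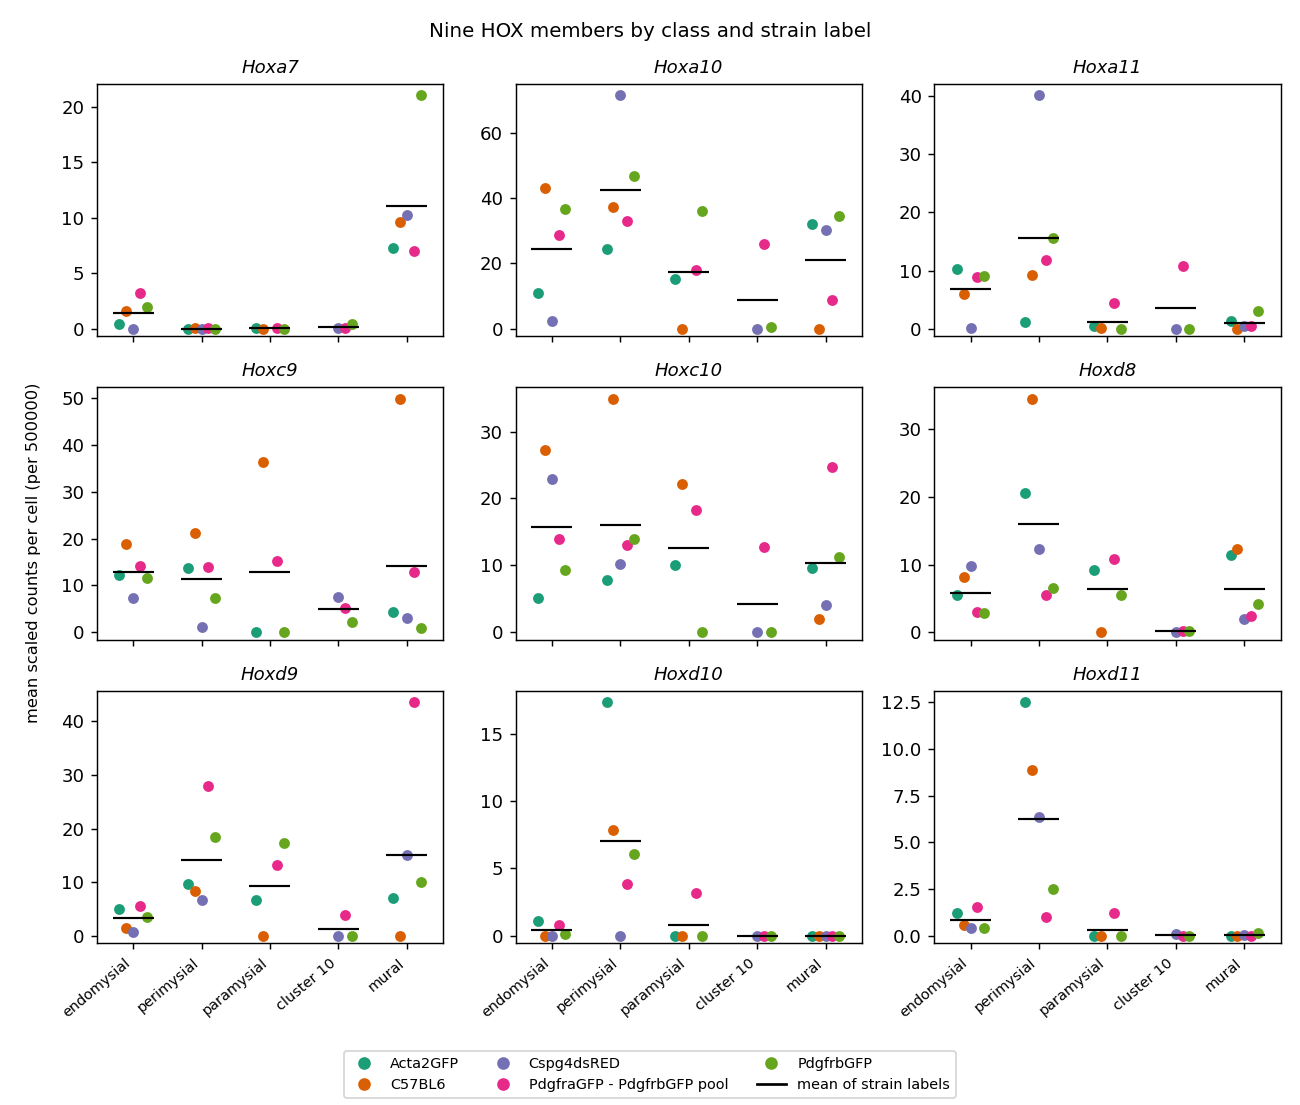
Mean scaled counts per cell of 9 HOX members in each class, with 1 point per strain label of 3 or more cells and a line for their mean. Hoxa7 points of mural cells lie between 7.01 and 21.04, above all other classes, and Hoxd10 points of mural cells are all at 0.

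Smaller classes gave no member past the threshold. In paramysial against endomysial cells 0.0963% of 14533 genes were called by edgeR, with 981 at an unadjusted p under 0.05. Of 15 members tested edgeR called 0, with 3 at an unadjusted p under 0.05. Those 3 were Hoxa7 (log2 fold change -4.77), Hoxa9 (-4.14) and Hoxa11 (-4.26), each lower in 4 of 4 strains. DESeq2 called 2 members, Hoxa9 and Hoxa11, beside 5.48% of all genes. In 3 of the 4 strains the paramysial cells numbered 3 to 6.

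In cluster 10 against endomysial cells 0.442% of 12455 genes were called by edgeR, with 1113 at an unadjusted p under 0.05. Of 11 members edgeR called 0, with 1 at an unadjusted p under 0.05, Hoxd8. DESeq2 called 1 member, Hoxc10, beside 7.97% of all genes. Hoxd8 was at a log2 fold change of -4.77 (adjusted p = 0.555, edgeR), and Hoxc10 was at -5.56 (adjusted p = 0.725, edgeR). A HOX member was found in 36 of the 62 cells of this cluster, and 37 of its cells came from Cspg4dsRED, the strain of lowest depth. Over strains the share of cells with a member was 69.0% ± 28.6 (SD, n = 3), from 37.8% to 94.1%.

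Between the perimysial clusters 9 and 2, 0.92% of 11843 genes were called by edgeR, with 1087 at an unadjusted p under 0.05. Of 14 members edgeR called 0, with 1 at an unadjusted p under 0.05. That member was Hoxa11, lower in cluster 9 in 4 of 4 strains with a log2 fold change of -5.63 (adjusted p = 0.37, edgeR). DESeq2 called Hoxa11, beside 7.16% of all genes. Hoxa11 was at 17.99 ± 16.01 scaled counts per cell in cluster 2 (n = 5) and 3.62 ± 7.09 in cluster 9 (n = 4).

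Among the 5 endomysial clusters, 5.46% of 16498 genes differed by an F test in edgeR, with 2970 at an unadjusted p under 0.05. Of 21 members 0 passed, with 7 at an unadjusted p under 0.05. DESeq2 called 4 members, Hoxa7, Hoxd3, Hoxd4 and Hoxd9, beside 15.6% of all genes. Hoxd3 and Hoxd4, whose exons overlap, are each counted here. Hoxa7 came nearest in edgeR (adjusted p = 0.0954), with 3.85 ± 4.15 scaled counts per cell in cluster 1 (n = 4), 1.61 ± 1.09 in cluster 3 (n = 4), 2.29 ± 0.462 in cluster 8 (n = 4), 0.245 ± 0.431 in cluster 6 (n = 4) and 0 in the 31 cells of cluster 5. Hoxd3 was at 0 in the 161 cells of cluster 1, and between 0.826 and 0.994 in the others (adjusted p = 0.133, edgeR).

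The last comparison asked whether the soleus, a slow postural muscle, differed from the gastrocnemius, its fast neighbour in the calf. HOX-D means were higher in soleus in both strains that had the muscles apart, and no gene passed the threshold. In the pool, gastrocnemius (231 cells) filled a plate of its own and soleus (181 cells) another, which means that the effects of muscle and of plate cannot be told apart in it. PdgfrbGFP had both (148 and 115 cells) on the same plate. With 2 strains, few residual degrees of freedom remain.

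In endomysial cells 0 of 15386 genes (0%) were called by edgeR, with 265 at an unadjusted p under 0.05, and of 18 members 0 were called, with 2 at an unadjusted p under 0.05. DESeq2 called 21 genes and 0 members. The 2 members were Hoxd10, with a log2 fold change of 4.40 (SE 1.61, unadjusted p = 0.0295 and adjusted p = 1, edgeR), and Hoxd11, with 4.34 (SE 1.79, unadjusted p = 0.0464 and adjusted p = 1, edgeR).

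Hoxd8 was at 0.692 scaled counts per cell in gastrocnemius and 7.02 in soleus of the pool, and at 2.25 and 5.63 in PdgfrbGFP. Hoxd9 was at 2.94 and 10.3 in the pool and at 3.65 and 6.60 in PdgfrbGFP. Hoxd10 was at 0.122 and 1.98 in the pool and at 0.0206 and 0.541 in PdgfrbGFP. All 3 genes, neighbours in the locus, had the higher value in soleus on each plate layout.

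Hoxd11 was at 0.151 and 3.99 in the pool and at 0.245 and 0.601 in PdgfrbGFP, and Hoxd3 at 0.110 and 1.89 and at 0.545 and 3.12. The Hoxd10 values of PdgfrbGFP rest on 1 gastrocnemius cell and 1 soleus cell. Median depth was also higher in soleus, at 478544 against 290985 counts in the pool and 164594 against 130164 in PdgfrbGFP, and its part was not tested.

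Markers of perimysial and paramysial cells moved the same way in these endomysial cells, while those of cluster 10 were mixed between the strains. The summed level of 5 perimysial markers was 61.3 scaled counts per cell in gastrocnemius and 250.03 in soleus of the pool, and 272 and 996 in PdgfrbGFP. That of 3 paramysial markers went from 36.0 in gastrocnemius to 149 in soleus of the pool, and from 74.0 to 106 within PdgfrbGFP. Their part in the HOX-D values was not tested.

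Over the loci, 6 of 9 HOX-D members were higher in soleus in both strains, with the uncertain Hoxd3 and Hoxd4 each counted, 0 were lower and 3 were at 0. Of 11 HOX-A members 0 were higher and 7 lower in both strains, of 10 HOX-B members 2 were higher and 3 lower, and of 9 HOX-C members 1 was higher (Hoxc4) and 4 were lower. Of the 18 members tested 7 were higher in soleus in both strains and 8 were lower, beside 32.2% higher and 21.1% lower of all genes tested. Among the HOX-C members, Hoxc5 was at 5.99 and 1.83 scaled counts per cell in gastrocnemius and soleus of the pool and at 4.52 and 1.05 in PdgfrbGFP. Hoxc11 was at 4.83 and 1.69 and at 3.83 and 0.252 in the same order, and Hoxa10 at 32.6 and 21.7 and at 45.0 and 34.3.

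**Figure D4:**
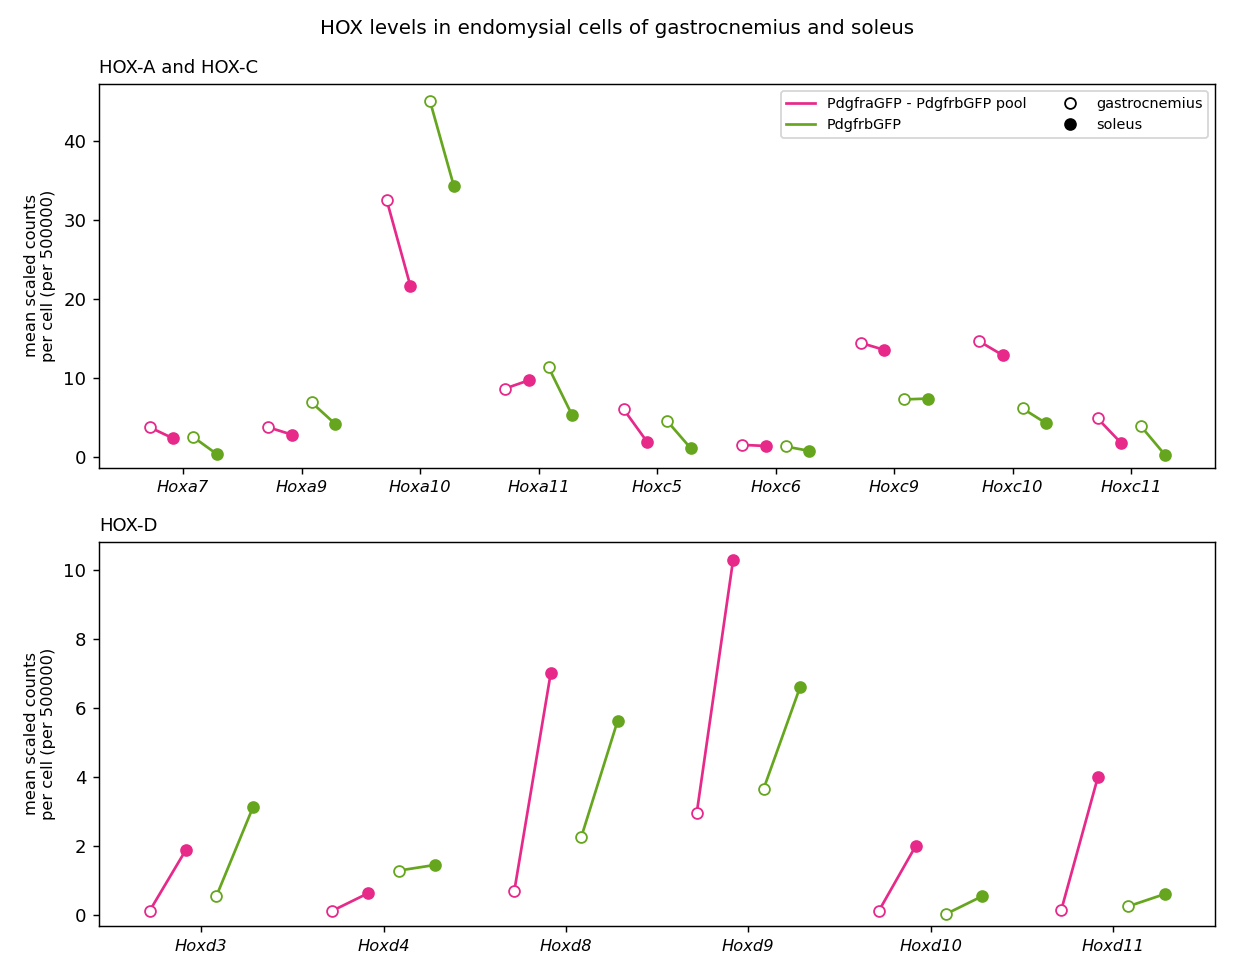
Mean scaled counts per cell in endomysial cells of gastrocnemius (open points) and soleus (filled points), joined within the pool and within PdgfrbGFP, for 9 HOX-A and HOX-C members (top) and 6 HOX-D members (bottom). Every HOX-D line has its higher end in soleus, with Hoxd9 of the pool at 2.94 and 10.3.

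In perimysial cells, with 16 to 20 cells per muscle and strain, edgeR called 0 of 15386 genes (0%) and 0 of 18 members. At an unadjusted p under 0.05 lay 1889 genes, 1 of them a member, Hoxc8. It had 87 and 2 counts in gastrocnemius and 0 in soleus. Here 5 HOX-D members were higher in soleus in both strains, with the uncertain Hoxd3 and Hoxd4 each counted, 0 were lower and Hoxd9 was mixed. Over the 18 members tested 6 were higher and 4 lower, beside 29.4% higher and 18.8% lower of all genes tested. The summed paramysial markers were also higher in soleus in these cells, at 724 against 114 scaled counts in the pool and 695 against 89.0 in PdgfrbGFP, and their part was not tested. The difference of the muscle effect between perimysial and endomysial cells was called for 0 genes (0%) and 0 members by edgeR. At an unadjusted p under 0.05 lay 1018 genes and 0 members. DESeq2 called 1291 genes in perimysial cells and 362 for the difference of effects, and 0 members in either.

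Genes that act with or around the HOX genes were counted from lists. TALE cofactors are the homeodomain proteins (MEIS, PBX and PKNOX) that bind DNA together with HOX proteins. Of 9 tested in mural cells against fibroblasts 0 were higher and 1 was lower, beside 15.4% called over all genes. It was Pknox1, with a log2 fold change of -4.10 (adjusted p = 0.0329, edgeR). Of 27 chromatin regulators, among them the Polycomb and Trithorax proteins that keep HOX loci silent or active, 24 were tested in that comparison. Of these edgeR called 0, with 1 at an unadjusted p under 0.05, beside 3805 of all 13880 genes tested.

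Of 27 limb patterning genes, 15 were tested in mural cells against fibroblasts, with 2 higher and 4 lower, beside 15.4% called over all genes. Pitx1, the transcription factor that sets hindlimb identity, fell by 8.504 on the log2 scale (adjusted p = 0.00422, edgeR), with 1 count in all mural cells. Tbx2, a T-box repressor, rose by 4.64 (adjusted p = 0.000681, edgeR) from 4.95 ± 2.60 scaled counts per cell in fibroblasts to 99.1 ± 22.5 in mural cells. Prrx2, a homeobox gene of limb mesenchyme, fell by 6.66 and Fgf10, a growth factor of the limb bud, fell by 5.70 on the same scale.

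Pitx1 was at 14.9 ± 5.94 scaled counts per cell in perimysial and 2.03 ± 2.17 in endomysial cells (log2 fold change 4.27, adjusted p = 0.114, edgeR) and higher in 5 of 5 strains. In that comparison 19 limb genes were tested and 2 were called, beside 5.57% of all genes. Both were lower in perimysial cells, Fgf10 by a log2 fold change of -6.37 (adjusted p = 0.00343, edgeR) and Gli3, a Hedgehog effector, by -2.36 (adjusted p = 0.0482, edgeR). Among endomysial clusters 22 limb genes were tested and 2 were called, beside 5.46% of all genes. They were Tbx15 and Prrx2 (adjusted p = 0.0413 and 0.033, edgeR). Tbx4, the T-box gene of hindlimb buds, had 3905 counts over all cells, and Tbx5, its forelimb counterpart, had 518.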

How the data were processed

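Single cells of mouse skeletal muscle were measured with Smart-seq2, and the authors deposited raw read counts per gene and cell. Per their methods, single reads of 50 bases were demultiplexed with bcl2fastq, trimmed with trim galore, mapped to GRCm38 (mm10) with TopHat2 and Bowtie, and counted with featureCounts. The annotation release and the use of strand are not given in the sources used here. The methods name removal of doublets with samtools, which is read here as removal of duplicate reads. No doublet caller was run here. The submitters' processing notes name the same counter and build.

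Of 1754 columns, 1 had no matching cell and was not used. Identifiers were matched to GENCODE M21, and neither library sizes nor tests included the 92 spike-ins. Depth was 46097 to 1055869 counts per cell. Levels are means of cells scaled to 500000 counts, per strain label and class with 3 or more cells, and detection was also computed after thinning to 46000 reads. Intervals (95%, exact) and the limit of 3 counts cover counting error only, since reads carry no molecular identifiers.

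Counts were summed per strain and class and tested with edgeR 4.0.16 (TMM, filterByExpr, quasi-likelihood, strain as block) in R 4.3.3, with Benjamini-Hochberg adjustment over all genes tested. The block pairs classes of the same strain label, which the labels give. For soleus against gastrocnemius, strain was the block as well. Alternatives were RLE size factors, no filter, DESeq2 1.42.0, no replicate block, the plate as unit, and each strain left out. The tests were tested on simulated data. Levels, sequences and figures were made with Python 3.11.15, numpy 2.4.6, scipy 1.17.1 and pandas 2.3.3.

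Members named with values are those called, the 10 with the highest level per kb, and per comparison the 3 uncalled members of 100 or more counts with the largest difference, and others named for a small count or a place in the locus were chosen after their values were seen. The members and lists were chosen with earlier results of these data known. Values of 1 member are not reported here.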

Additional observations from a re-analysis of the deposited data

Results flagged for a closer look

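In 7 of 47 groups of strain labels, the value of 1 strain stood far from the others by Dixon's test of the gap to the nearest value. For normally distributed values chance marks about 1 in 20 groups, and the rate for sparse means such as these was not tested. All values are mean scaled counts per cell.

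In mural cells, Hoxa7 was at 21.04 in PdgfrbGFP, with the other strains at 7.01 to 10.3, so the strain that stood apart lay on the same side as the difference from fibroblasts. Also in mural cells, C57BL6 was at 17.3 for Hoxc11, with the others at 0 to 0.510, and at 49.8 for Hoxc9, with the others at 0.830 to 12.9. Both values rest on 9 cells, which also held the highest immune marker sum of the mural groups.

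Among perimysial cells, Hoxc10 was at 34.9 in C57BL6 and at 7.89 to 13.99 in the others. Among paramysial cells, the pool stood apart for Hoxa11 (4.37, others 0 to 0.411), Hoxd10 (3.20, others 0) and Hoxd11 (1.22, others 0). The pool held 46 of the paramysial cells, and the other strains held 3 to 6 each.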

How the results depend on the processing

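The number of members called depended on the setting. In mural cells against fibroblasts, 2 members were called, and 1 without the filter on low counts, 7 by DESeq2, 1 with the plate as unit (Hoxa11), and between 0 and 2 when a strain was left out. It was 0 without Acta2GFP, Cspg4dsRED or the pool, and 1 without PdgfrbGFP. Without the replicate block it was 2. Perimysial against endomysial cells went from 0 to 4 by DESeq2, to 2 with the plate as unit (Hoxd9 and Hoxd10) and to between 0 and 2 with a strain left out, the 2 (Hoxa7 and Hoxd9) being without Cspg4dsRED. The count also went from 0 to 2 by DESeq2 for paramysial cells, to 1 for cluster 10, to 1 for cluster 9 against cluster 2, and to 4 among endomysial clusters by DESeq2 and likewise to 4 by plate. Shares of all genes called changed as well. By DESeq2 they were 31.2% for mural cells, 14.6% for perimysial cells and 15.6% among endomysial clusters. With the plate as unit they were 16.5%, 9.48% and 11.5% in the same order. Mural cells had 6.62% called without the filter, and between 8.91% and 16.2% with a strain left out. Perimysial cells had 9.06% called without Cspg4dsRED. The cause of these changes was not tested. In the other comparisons the replicate block changed no count of members.

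Hoxa7 kept its direction in 10 alternatives (log2 fold change 3.35 to 4.88, adjusted p 2.34e-08 to 0.373, edgeR or DESeq2), and 6 of them lost the call. Hoxd11 kept its direction in 9 alternatives (-7.15 to -4.84, adjusted p 0.000781 to 0.0759), and 4 lost the call. With RLE in place of TMM scaling, the median log2 fold change of all genes in cluster 10 against endomysial cells moved from -0.41 to -0.27, and in the comparisons other than the F test 1 member changed sign (Hoxc10 in paramysial cells, from -0.07 to 0.03).

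With 10 or more scaled counts required, 9 members instead of 14 were found in 5% of cells or more, and 67.2% of cells held any member. In the muscle comparisons, leaving out a strain leaves no residual degrees of freedom, so values per strain are given with no test.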
